A study of Mus musculus with 7 samples.

Results

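Basement membranes are thin sheets of matrix that surround brain capillaries and the larger vessels, and that line the brain surface and the choroid plexus. Type IV collagen and laminin each assemble into a network, and nidogens and the proteoglycan perlecan link the networks to each other. At the capillary, endothelial cells and pericytes share one such sheet, and astrocyte end-feet lay down another on the brain side. The 10 genes described here encode the main parts of these sheets: Col4a1 and Col4a2 (the collagen IV chains of most vessels), Lama2, Lama4 and Lama5 (laminin alpha chains), Lamb1 (a beta chain), Lamc1 (a gamma chain), Nid1 and Nid2 (nidogens) and Hspg2 (perlecan). They were chosen by name, with earlier results of these data known, and each of the 10 symbols matched 1 of the 32285 genes listed.

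Nuclei came from 7 mice, 1 per library: 4 that received an ANGPT2 AAV and 3 that received a control AAV. All were 5xFAD +/-, a transgenic mouse line that forms amyloid plaques, so a mouse without these transgenes was not part of the comparison. AAV was given behind the eye at 4 months and tissue (subcortex, thalamus and hippocampus) was taken at 6 months. ANGPT2 encodes angiopoietin-2, which is released by endothelium and binds the receptor TIE2, and the series asks what it does to the blood-brain barrier and to inflammation; the labels do not name the promoter of the vector or the cells it enters. The ANGPT2 group held a male and a female in each of the batches 1 and 2, and the control group held a male and a female in batch 1 and a male in batch 2.

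The libraries held 25466033 to 100529717 unique molecular identifiers (UMIs, counted RNA molecules), with the 3 libraries of batch 2 holding the fewest. After filters, 54230 nuclei were kept (5974 to 8881 per library) and sorted into 13 classes from marker genes. Each class name means nuclei like that type. Of the kept nuclei, 10.3% to 31.9% per library stayed without a name and enter the values of whole libraries only. The 3 classes called vascular below were small: 513 endothelial, 320 mural (pericytes and smooth muscle) and 348 fibroblast nuclei over 7 libraries. A single library gave 46 to 142, 23 to 94 and 22 to 82 of them. The defining marker lists were present in each, with at least 1 UMI in their own class for 10 of 10 endothelial, 10 of 10 mural and 10 of 10 fibroblast markers; 10, 8 and 9 of them were found in at least 5% of the nuclei of their cluster, called doublets included. The fibroblast cluster was led by Slc6a20a, Cped1 and Bnc2, and whether its nuclei lay at vessels or in the meninges was not tested. Choroid plexus nuclei numbered 184, and their values rest on 5 libraries (2 ANGPT2 and 3 control). The mouse gene Angpt2 itself had 2.23 to 4.77 UMIs in 1000000 (CPM) in ANGPT2 libraries, against 3.78 to 4.33 CPM in control libraries, and the groups overlapped; the labels do not give the species of the vector copy.

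Col4a1 (chr8:11198423-11312826, minus strand, GRCm38) and Col4a2 (chr8:11312805-11449287, plus strand) lie head to head on mouse chromosome 8. Their annotated first exons share 22 bases on opposite strands. These bases, with 4 on either side, are shown because the pair shares a start region and, as described next, a pattern over nucleus classes. The sequence is chr8:11312801-11312830 on the plus strand of GRCm38.p6, and capitals mark the shared bases.
Col4a1 and Col4a2 start sites: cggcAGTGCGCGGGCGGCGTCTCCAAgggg
In the RefSeq table of promoter windows (250 bases before to 50 after a start, GRCm38), 7 of the 10 members had an entry (not Lama4, Lamc1 and Nid2). The GC box letters GGGCGG stood on either strand in 7 of these 7 windows and in 35.7% of all 32851 windows, and the shared bases above hold one. The letters CCAAT stood in 4 of 7 (Col4a1, Col4a2, Lamb1 and Nid1) and in 37.4% of all windows, and TATAAA in 0 of 7 and 13.6%. The 7 windows were 50.3% to 74.0% G and C, against a mean of 53.8% over all windows. The Col4a1 and Col4a2 windows overlap, so matches in the shared stretch are not separate.

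**Figure D1:**
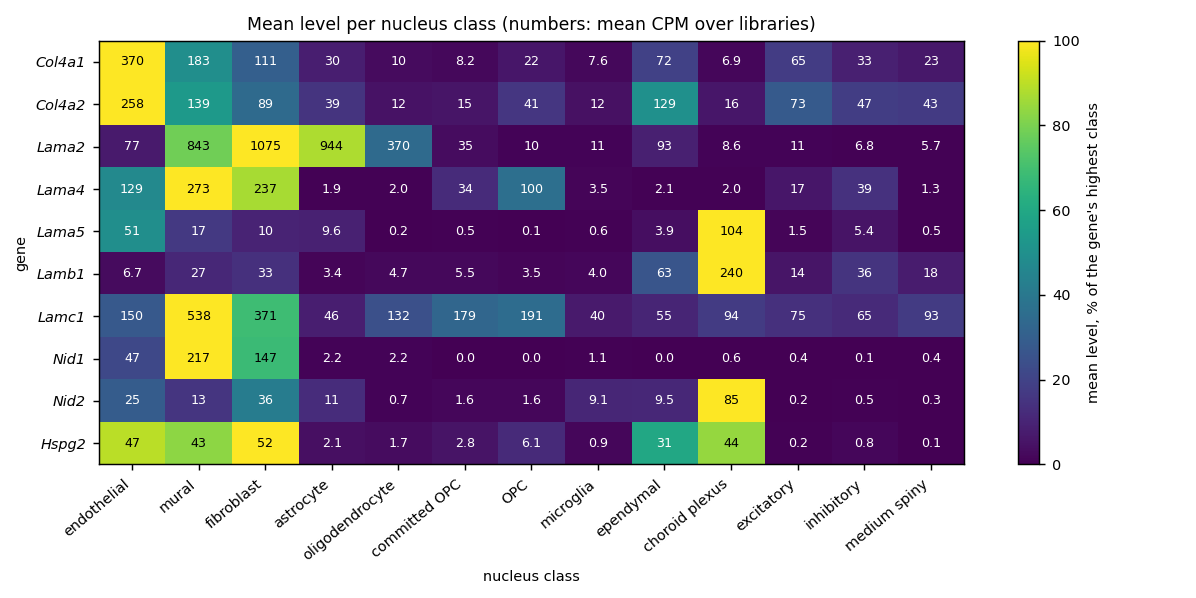
Mean level of the 10 genes (rows) in 13 nucleus classes (columns), in CPM averaged over libraries; colour gives the level as a percentage of the same gene's highest class, so colours compare classes within a row. Col4a1 and Col4a2 peak in endothelial nuclei, Lama4, Lamc1 and Nid1 in mural nuclei, Lama2 and Hspg2 in fibroblast nuclei, and Lama5, Lamb1 and Nid2 in choroid plexus nuclei.

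Collagen IV transcripts were highest in endothelial nuclei. Col4a1 averaged 369.7 ± 109.5 CPM there (SD, n = 7 libraries), 183 ± 122 CPM in mural, 111 ± 86.6 CPM in fibroblast, 72.2 ± 16.5 CPM in ependymal and 65.0 ± 22.2 CPM in excitatory neuron nuclei. Neighbours in this order overlapped between libraries. Col4a2 averaged 258 ± 129.7 CPM in endothelial, 139 ± 122 CPM in mural, 129 ± 33.7 CPM in ependymal, 89.3 ± 70.8 CPM in fibroblast and 73.3 ± 24.4 CPM in excitatory nuclei. Ependymal cells line the ventricles, and their Col4a2 level overlapped the mural one. Microglia were low for both, at 7.64 CPM for Col4a1 and 11.7 CPM for Col4a2. Over 13 classes, the gene most like Col4a1 among 14900 compared was Col4a2, and the reverse held too (Pearson r = 0.97 of log2(mean CPM + 1), a description across classes that share libraries).

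Although the level per UMI was highest in endothelial nuclei, most collagen IV molecules were counted in excitatory neuron nuclei. Excitatory nuclei, 31.6% of those kept, held 73.3% of Col4a1 UMIs and 70.1% of Col4a2 UMIs. These nuclei were deep, and held 34.0% to 67.4% of the UMIs of all genes in a library. With each nucleus thinned to 500 UMIs, 3.26% of excitatory nuclei had a Col4a1 UMI, against 13.5% of endothelial, 1.41% of inhibitory, 0.472% of oligodendrocyte and 0.368% of microglial nuclei. Unthinned shares were 42.0% in excitatory nuclei (median 10788 UMIs), 33.5% in endothelial nuclei (1295) and 1.47% in microglia (1496). The excitatory share lay above that of microglia at equal depth. Nuclei under 500 UMIs were left out of the thinned shares. An unnamed cluster of 6019 nuclei led by Hbb-bs, Ttr and Gm42418 had 39.1 CPM of Col4a1. The part of RNA from outside the nuclei in these counts was not tested. Among 15 excitatory clusters the Col4a1 level spanned 14.8 CPM in a cluster led by Vwc2l, Tshz2 and Npsr1 to 127 CPM in a cluster of 2554 nuclei led by Igfn1, Stard8 and Gm48530. Dentate granule nuclei had 26.0 ± 8.82 CPM and thalamic excitatory nuclei 43.3 ± 17.7 CPM (SD, n = 7).

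Laminin alpha chains split by class. Lama2 (chr10:26980036-27619758, minus strand), the alpha chain of muscle and of the astrocyte side of brain vessels, averaged 1075 ± 209 CPM in fibroblast, 944 ± 118 CPM in astrocyte and 843 ± 361 CPM in mural nuclei, with overlapping libraries. Oligodendrocyte nuclei followed at 370.1 ± 52.0 CPM. All other classes were lower: the next, ependymal nuclei, had 93.0 ± 51.8 CPM, and its highest library stayed below the lowest oligodendrocyte library. Endothelial nuclei had 76.9 ± 62.1 CPM. After thinning, 41.1% of fibroblast, 35.0% of astrocyte, 34.1% of mural and 14.8% of oligodendrocyte nuclei had a Lama2 UMI, against 0.588% of microglia. Astrocytes and oligodendrocytes are abundant, and they held 39.01% and 31.3% of all Lama2 UMIs.

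Lama4 (chr10:38965515-39110188, plus strand), the alpha chain found along endothelium, was highest in mural nuclei (273 ± 98.2 CPM) and fibroblast nuclei (237 ± 72.0 CPM), then endothelial nuclei (129 ± 55.2 CPM) and oligodendrocyte precursors (OPC, 99.7 ± 16.3 CPM; SD, n = 7). These 4 overlapped in this order. Inhibitory neurons had 38.8 ± 5.74 CPM, and every inhibitory library lay below every OPC library. Astrocytes and mature oligodendrocytes were almost without it, at 1.91 and 1.97 CPM, so that Lama2 and Lama4 shared the mural and fibroblast classes and parted in the glia. Lama5 (chr2:180176373-180225859, minus strand), the alpha chain of mature vessels and epithelia, was led by choroid plexus nuclei at 104 ± 20.5 CPM (n = 5), followed by endothelial nuclei at 51.1 ± 20.1 CPM (n = 7). No other class passed 17.4 CPM, and the mural value rests on 4 UMIs.

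The beta and gamma chains, which laminin trimers of different alpha chains can share, differed from each other in spread. Lamc1 (chr1:153218922-153332786, minus strand) was found in every class, from 39.7 CPM in microglia to 538 ± 241 CPM in mural nuclei, with 371 ± 158 CPM in fibroblast, 191 ± 52.9 CPM in OPC and 149.5 ± 68.4 CPM in endothelial nuclei. Lamb1 (chr12:31265234-31329644, plus strand) was led by choroid plexus nuclei at 239.7 ± 60.7 CPM (n = 5), where every library lay above every ependymal library (63.1 ± 33.8 CPM, n = 7). It was barely counted in endothelial nuclei, with 8 UMIs in 902529.

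Of the linkers, Nid1 (chr13:13437551-13512269, plus strand) had the largest share of its UMIs in the vascular classes among the 10 members. Mural nuclei averaged 217 ± 127 CPM, fibroblast nuclei 147 ± 56.9 CPM and endothelial nuclei 47.3 ± 14.9 CPM (SD, n = 7). No other class passed 2.20 CPM, and no endothelial library overlapped one of the next class, oligodendrocytes. Single clusters outside the vascular classes were higher. An unnamed cluster of 994 nuclei like oligodendrocytes had 10.7 CPM, and an excitatory cluster led by Ccn2, Rai14 and Fbxl7 had 7.40 CPM. OPC nuclei gave 0 of 4200425 UMIs, which allows up to 0.714 CPM, committed OPC nuclei 0 of 1260159 (up to 2.38 CPM) and ependymal nuclei 0 of 727959 (up to 4.12 CPM); these limits cover counting error only. The endothelial, mural and fibroblast classes are together 2.18% of kept nuclei and held 56.4% of all Nid1 UMIs, against 8.42% of Lama4 UMIs. Of these Nid1 UMIs, 118 were mural, 110 fibroblast and 40 endothelial. The genes with the most similar class pattern were Kcne4, Cd248 and Foxd1 (r = 0.97 each). Nid2 (chr14:19751265-19811787, plus strand) differed: it was led by choroid plexus nuclei (84.5 ± 48.6 CPM, n = 5), with 35.6 ± 17.6 CPM in fibroblast and 24.7 ± 22.3 CPM in endothelial nuclei (n = 7). Hspg2 (chr4:137468769-137570630, plus strand) had 52.2 ± 17.2 CPM in fibroblast, 46.8 ± 17.8 CPM in endothelial, 44.0 ± 19.0 CPM in choroid plexus and 43.3 ± 45.6 CPM in mural nuclei, and the neurons stayed at or below 0.822 CPM.

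The classes come from the same counts, so the order of levels is a description with no test. Of the members, Lama2, Nid1, Nid2 and Hspg2 were among the 2500 genes used for clustering. When the 10 members and the other listed matrix genes were left out of that choice, the leading class of each member was the same. By the same measure of likeness over 13 classes, the closest gene was Idi1 for Lama2 (r = 0.88), 1810055G02Rik for Lama4 (0.88), Ccdc141 for Lama5 (0.92), Braf for Lamb1 (0.93), Gnb4 for Lamc1 (0.87), 1700123O20Rik for Nid2 (0.95) and Gpx8 for Hspg2 (0.95).

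Between ANGPT2 and control libraries, no member passed the threshold (adjusted p under 0.05, edgeR quasi-likelihood test with Benjamini-Hochberg adjustment over all genes of a fit). In endothelial nuclei 0 of the 4 members tested and 0 of 3209 genes (0%) were called; 71 genes (2.21%) had an unadjusted p under 0.05, none of them a member. In mural nuclei the counts were 0 of 5 members and 0 of 1110 genes (0%), with 20 genes (1.80%) under 0.05 before adjustment. In fibroblast nuclei they were 0 of 5 members and 0 of 2591 genes (0%), with 103 (3.98%) under 0.05. In whole libraries they were 0 of 10 members and 0 of 19985 genes (0%), with 552 (2.76%) under 0.05, among them Lama4 and Lama2. Complete separation of the groups, with ANGPT2 higher or lower, was seen for 2.15% and 2.09% of genes in endothelial and 1.53% and 1.71% in mural nuclei, and for 0 of the members tested there. In the other 10 classes 0 members were called too, and 2 genes passed in ependymal nuclei (0.0649% of 3084), neither a member. Members that had too few UMIs for the filter were not tested in a class, and DESeq2 called 0 members in these 4 comparisons as well.

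**Figure D2:**
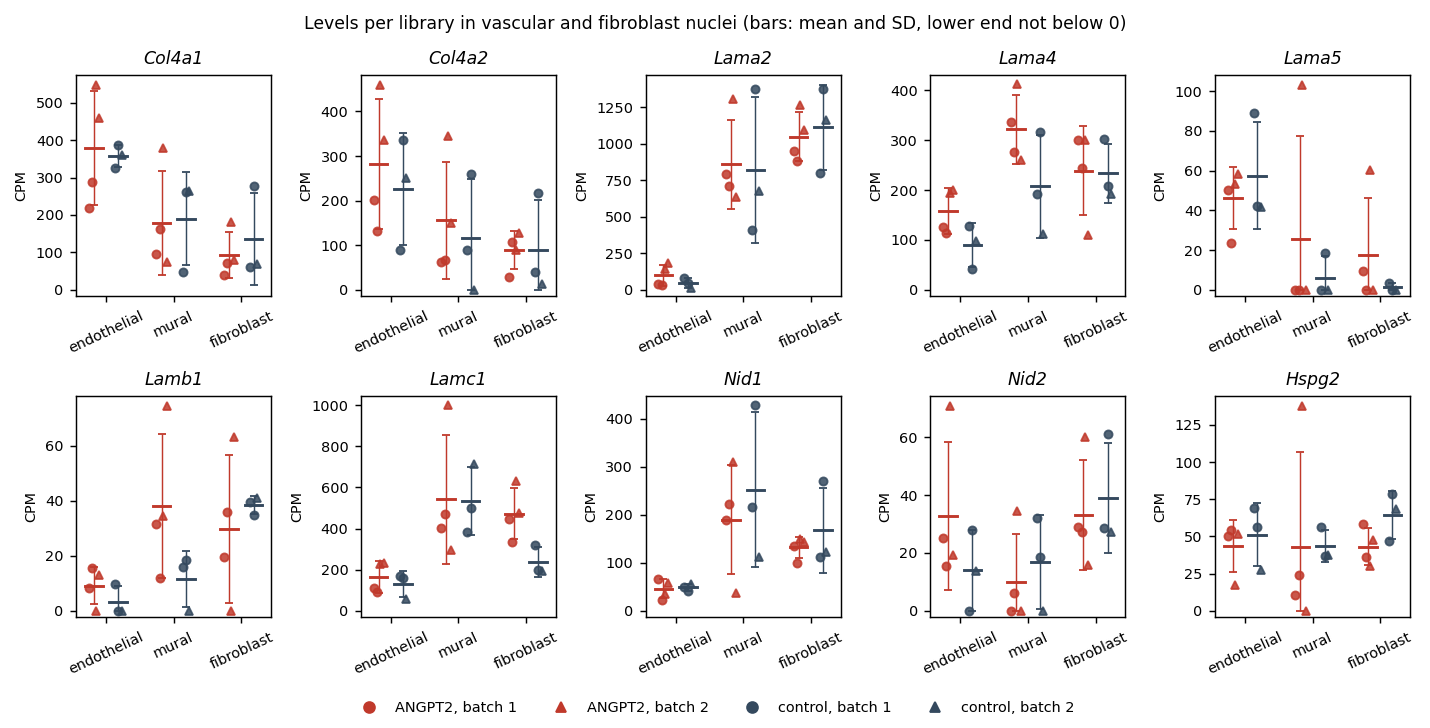
CPM of each gene (panels) per library in endothelial, mural and fibroblast nuclei, ANGPT2 left of control in each pair; circles are batch 1, triangles batch 2, bars the mean and SD. Lamc1 in fibroblast nuclei is the only panel and class among the tested members where the groups do not overlap, at 334 to 632 CPM in ANGPT2 and 191.5 to 319.6 CPM in control libraries.

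In endothelial nuclei no difference in collagen IV was detected, and the libraries spread widely. Col4a1 had 218, 288, 548 and 460.1 CPM in ANGPT2 libraries (batch 1 male and female, then batch 2 male and female), against 326, 386 and 361 CPM in control libraries (batch 1 male and female, then the batch 2 male; all later values keep this order). The 3 control values lay inside the ANGPT2 range. The log2 difference was 0.032 (SE 0.33, unadjusted p = 0.92, adjusted p = 0.9995, edgeR). Within batch 1 the difference of mean log2 CPM was -0.43 and within batch 2 it was 0.54. Col4a2 had 201, 132, 459.9 and 337 CPM in ANGPT2 libraries and 89.0, 337 and 249.8 CPM in control libraries, a log2 difference of 0.22 (SE 0.47). With the batch as a block both turned slightly negative, to -0.13 and -0.043.

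Lama4 in endothelial nuclei had 126, 113, 195 and 201 CPM in ANGPT2 libraries, against 129, 42.1 and 97.2 CPM in control libraries. The control female of batch 1 was lowest, and the control male of batch 1 lay within the ANGPT2 range. The log2 difference of 0.83 (SE 0.41) had an unadjusted p of 0.066 and an adjusted p of 0.9995 (edgeR). It was 0.60 within batch 1 and 0.99 within batch 2. Leaving out the female control of batch 1 gave 0.42, leaving out the male control of that batch gave 1.27, and keeping called doublets gave 0.34. The values rest on 6 to 31 UMIs per library.

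In mural nuclei Col4a1, Lama2 and Lamc1 had log2 differences of 0.016, 0.031 and 0.0062 (SE 0.61, 0.48 and 0.45). Lama4 had 337, 277, 413 and 261 CPM in ANGPT2 libraries and 193, 316 and 113 CPM in control libraries, a log2 difference of 0.52 (SE 0.37, unadjusted p = 0.18, adjusted p = 1.00, edgeR). Nid1 had 189.7, 222, 309.8 and 37.2 CPM in ANGPT2 libraries and 217, 428 and 113 CPM in control libraries, a log2 difference of -0.42 (SE 0.47). Both genes overlapped between the groups. Without the control female of batch 1, which held the highest Nid1 value, that difference was 0.075.

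In fibroblast nuclei Lamc1 was the member with the smallest p. It had 446, 334, 632 and 475 CPM in ANGPT2 libraries, against 319.6 CPM (89 UMIs), 200.3 CPM (23 UMIs) and 191.5 CPM (14 UMIs) in control libraries. The groups did not overlap, which held with ANGPT2 higher for 3.36% of the 2591 genes tested and with ANGPT2 lower for 2.01%. The log2 difference was 0.85 (SE 0.31, unadjusted p = 0.017, adjusted p = 0.9997, edgeR), 0.49 within batch 1 and 1.32 within batch 2. Markers of other cells were counted in the same nuclei. Of 17 marker lists only those of border macrophages and astrocytes are given, a choice with no rule set beforehand. Of 7 border macrophage markers 5 were detected, with Pf4 and Ms4a7 at 0. Their summed level was 0 to 396 CPM in ANGPT2 libraries and 0 to 14.4 CPM in control libraries. That of 10 astrocyte markers was 3122 to 5209 CPM in ANGPT2 libraries and 1759 to 4417 CPM in control libraries. The groups overlapped for both lists. The part of such markers in the Lamc1 difference was not tested. Col4a2, Lama2, Lama4 and Nid1 had log2 differences of -0.082, -0.14, -0.060 and -0.40 (SE 0.74, 0.29, 0.34 and 0.38).

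**Figure D3:**
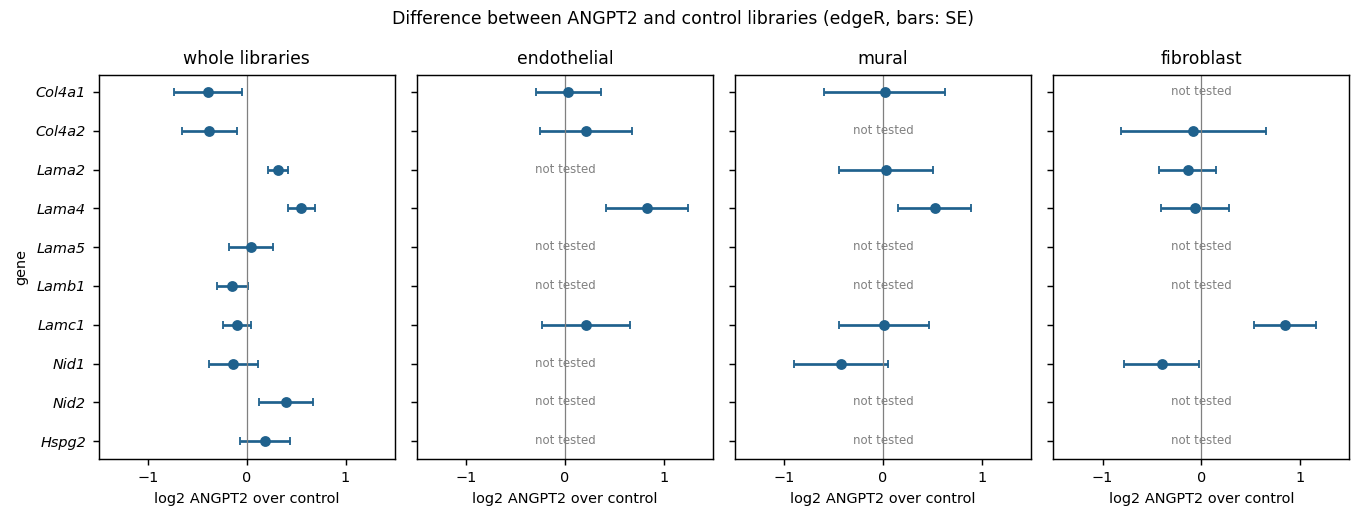
Log2 difference of ANGPT2 over control with its SE (bars) for each gene in whole libraries and in endothelial, mural and fibroblast nuclei; genes under the count filter are marked as not tested. Lama4 lies at 0.55 in whole libraries and 0.83 in endothelial nuclei, and Lamc1 at 0.85 in fibroblast nuclei, while no value passed the adjusted threshold.

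In whole libraries, where fewer cells of a type and less RNA per cell cannot be told apart, Lama4 was the member with the smallest p. It had 15.9, 20.2, 16.6 and 19.5 CPM in ANGPT2 libraries, against 11.95, 12.5 and 14.6 CPM in control libraries. The groups did not overlap, as for 0.791% of the 19985 genes with ANGPT2 higher and 3.15% with ANGPT2 lower. The log2 difference was 0.55 (SE 0.14, unadjusted p = 0.0028, rank 9 of 19985, adjusted p = 0.998, edgeR), and it was 0.52 within each batch. Lama2 had 69.8, 68.2, 55.1 and 58.7 CPM in ANGPT2 libraries and 55.0, 45.4 and 60.5 CPM in control libraries, which overlapped (log2 0.32, SE 0.10, unadjusted p = 0.013, adjusted p = 0.998, edgeR). Its difference was 0.44 within batch 1 and 0.14 within batch 2. Within astrocyte nuclei Lama2 differed by 0.20 (SE 0.17) and within oligodendrocyte nuclei by 0.18 (SE 0.18). The other 8 members lay between -0.40 and 0.40.

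The Lama4 difference of whole libraries was smaller without excitatory neurons, which held 53.2% of Lama4 UMIs. That share lay within the 34.0% to 67.4% of the UMIs of all genes that they held per library. With excitatory nuclei left out of the sums, an alternative chosen after seeing the data, the log2 difference was 0.19 (SE 0.19). Within excitatory nuclei Lama4 had 13.9, 20.7, 24.5 and 21.0 CPM in ANGPT2 libraries, against 9.43, 8.71 and 17.3 CPM in control libraries. The groups overlapped, and the log2 difference was 0.90 (SE 0.27, unadjusted p = 0.0083, adjusted p = 0.89, edgeR; 0 of 17724 genes called, 0%, and 4.67% with an unadjusted p under 0.05). It was 0.84 within batch 1 and 0.64 within batch 2. Excitatory neurons made up 38.6%, 26.9%, 16.2% and 34.6% of nuclei in ANGPT2 libraries and 34.8%, 44.0% and 25.7% in control libraries. Medium spiny nuclei numbered 253, 487, 1944 and 664 in ANGPT2 libraries and 15, 143 and 1758 in control libraries. They averaged 1.26 CPM of Lama4 and 5.70 CPM of Lama2. The part of medium spiny nuclei in the whole-library differences was not tested.

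Lama4 was unevenly spread among excitatory clusters. A cluster of 2920 nuclei led by Adam33, Rorb and Kcnh5 (Rorb is a marker of cortical layer IV neurons) had 53.5 CPM. It held 54.9% of the excitatory Lama4 UMIs in 17.0% of the excitatory nuclei. Of the other 14 clusters, 1 of 115 nuclei had 102 CPM and the rest 0.668 to 23.6 CPM. Lama4 was not among the genes used for clustering. However, this cluster was singled out after its values were seen, as the excitatory cluster with the most Lama4 UMIs. The Lama4 p-value, rank and group separation given next for it are thus a description, not independent of that choice.

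Within that cluster Lama4 had 58.7, 65.6, 70.0 and 77.5 CPM in ANGPT2 libraries (119 to 441 UMIs), against 35.6, 39.9 and 46.8 CPM in control libraries (80 to 222 UMIs). Every ANGPT2 library lay above every control library, as for 1.08% of the 12567 genes tested there. In batch 1 the ANGPT2 values of 58.7 and 65.6 CPM stood against 35.6 and 39.9 CPM in control libraries, and in batch 2 those of 70.0 and 77.5 CPM against 46.8 CPM in the control library. The log2 difference was 0.89 (SE 0.18), with an unadjusted p of 0.00042 that ranked 1 of 12567 genes, and 1 to 29 with a library left out, and it did not pass adjustment (adjusted p = 0.81, edgeR), and 0 genes did (0%; 5.17% had an unadjusted p under 0.05). The cluster was 14.5%, 21.2%, 22.9% and 18.0% of the excitatory nuclei in ANGPT2 libraries and 14.0%, 14.5% and 19.5% in control libraries. In the other excitatory clusters together Lama4 had 7.76, 10.3, 12.04 and 9.54 CPM in ANGPT2 libraries and 6.05, 4.09 and 10.7 CPM in control libraries, which overlapped. Inhibitory neurons had 41.1, 47.6, 41.6 and 36.9 CPM in ANGPT2 libraries and 30.5, 40.5 and 33.1 CPM in control libraries (log2 0.32, SE 0.14, unadjusted p = 0.044, adjusted p = 0.98, edgeR; 0 of 12770 genes called, 0%, and 3.66% with an unadjusted p under 0.05). Lamc1 there differed by 0.25 (SE 0.11, unadjusted p = 0.036, adjusted p = 0.98, edgeR). In medium spiny neurons Lamb1 had 12.03, 16.9, 20.3 and 13.7 CPM in ANGPT2 libraries, against 0, 24.3 and 37.6 CPM in control libraries. The first control value rests on 15 nuclei. The log2 difference was -0.80 (SE 0.31, unadjusted p = 0.021, adjusted p = 1.00, edgeR). Of 11421 genes 0 were called (0%), and 1.90% had an unadjusted p under 0.05. The Lamb1 difference was 2.00 within batch 1 and -0.98 within batch 2, so its direction turned between batches.

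**Figure D4:**
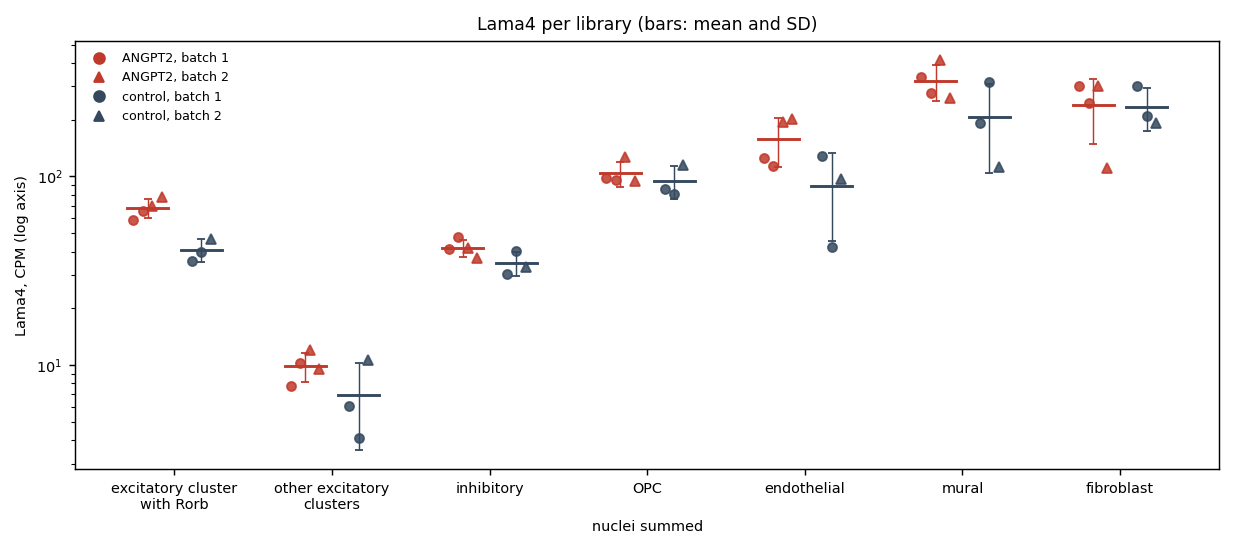
Lama4 level (CPM, log axis) per library in the excitatory cluster with Rorb among its leading genes, the other excitatory clusters summed, and 5 classes, with ANGPT2 left of control; circles are batch 1, triangles batch 2, bars the mean and SD. The 4 ANGPT2 libraries sit between 58.7 and 77.5 CPM in the first column, above the 3 control libraries at 35.6 to 46.8 CPM.

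Collagen IV ran the other way in whole libraries, though not within batch 2, and leaving out 1 control library turned that direction. Col4a1 had 51.2, 52.1, 36.0 and 43.5 CPM in ANGPT2 libraries and 47.0, 102 and 35.5 CPM in control libraries. Col4a2 had 62.1, 57.9, 44.7 and 56.2 CPM in ANGPT2 libraries and 59.9, 112 and 50.8 CPM in control libraries. The control female of batch 1 stood above all others for both. The log2 differences were -0.40 (SE 0.34) and -0.38 (SE 0.28), with unadjusted p of 0.28 and 0.21 and an adjusted p of 0.998 for both (edgeR). Within batch 1 the differences were -0.45 (Col4a1) and -0.48 (Col4a2), and within batch 2 they were 0.38 and 0.21. Without the control female of batch 1 the log2 differences were 0.28 and 0.13. Of 12 classes present in all 7 libraries, it was the highest library for Col4a1 in 9 and for Col4a2 in 8, neurons and glia alike. In excitatory nuclei its Col4a1 level was 113 CPM, against 50.6 to 67.4 CPM in ANGPT2 libraries and 50.6 and 59.4 CPM in the control males. In endothelial nuclei it was 386 CPM, within the range of the ANGPT2 libraries. No other member had 1 library highest in more than 4 of the 12 classes. It is the only control female, so that sex and this library cannot be told apart within the control group.

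**Figure D5:**
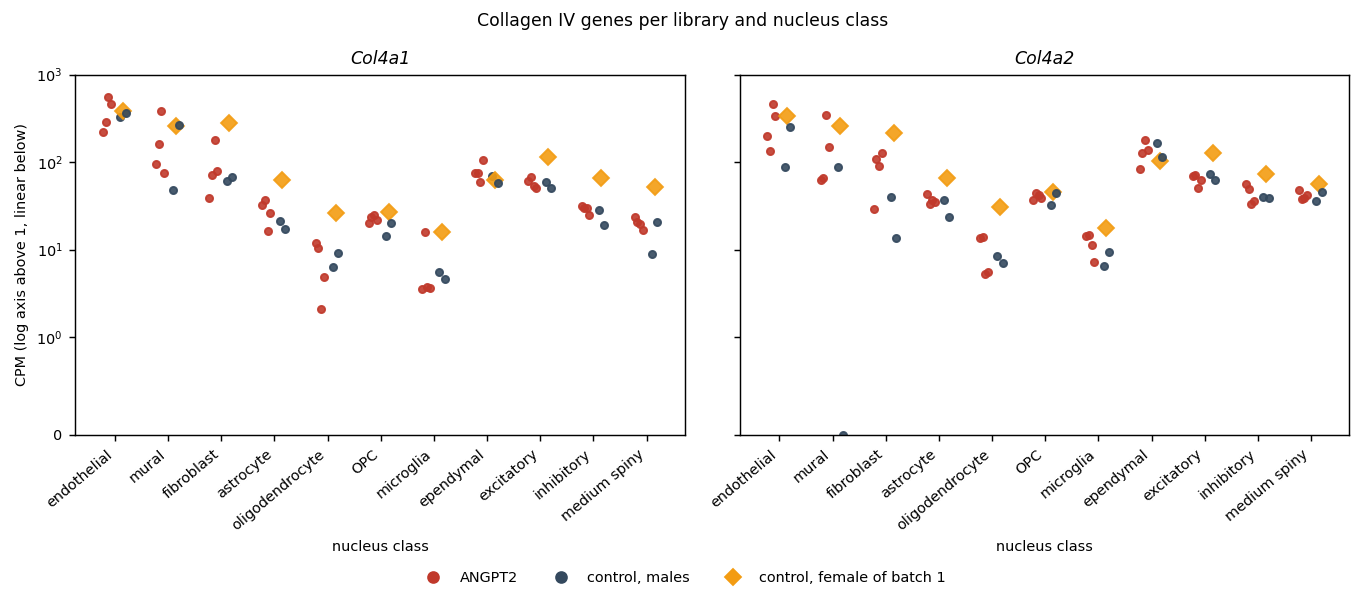
Col4a1 and Col4a2 levels (CPM, log axis above 1) per library in 11 nucleus classes, ANGPT2 left of control, with the control female of batch 1 as a diamond. The diamond is the highest point for both genes in fibroblast, astrocyte, oligodendrocyte, excitatory and inhibitory nuclei, and lies among the others in endothelial nuclei.

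Differences of the treatment effect were tested directly. Between batches, Lamc1 in endothelial nuclei was the only member effect tested, over whole libraries and the 3 vascular classes, with an unadjusted p under 0.05. It had 230.0 and 233 CPM in ANGPT2 libraries of batch 2, against 55.5 CPM (4 UMIs) in the control library of batch 2, and 109 and 89.6 CPM in ANGPT2 libraries of batch 1, against 168 and 161 CPM in the control libraries of batch 1. The effects differed by 2.78 (log2, SE 0.76, unadjusted p = 0.0018, adjusted p = 0.97, edgeR); 1 of 3209 genes was called (0.0312%), not a member. An unadjusted p under 0.05 for this difference was found for 5.05% of genes in endothelial, 2.61% in mural and 5.09% in fibroblast nuclei and 3.05% in whole libraries, where 0 genes were called (0%) outside endothelial nuclei. Between endothelial and mural nuclei, and between endothelial and fibroblast nuclei, 0 of 6 members were called each time (0% of 3546 and 0% of 3823 genes), and 0 had an unadjusted p under 0.05.

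The 4 lists of partner genes were tested in the same fits, and 0 genes of any list were called. The lists hold 20 other basement membrane components, 18 enzymes and chaperones of collagen and laminin assembly, 19 receptors and 22 remodelling proteases and inhibitors. In fibroblast nuclei 7 other components were tested and 4 of them had an unadjusted p under 0.05, against 3.98% of all 2591 genes. The lists were chosen with earlier results of these data known, so this count is not independent of the choice. Fn1 (fibronectin) had 117 to 206 CPM in ANGPT2 libraries and 212 to 401 CPM in control libraries, a log2 difference of -1.10 (SE 0.32, unadjusted p = 0.0048, adjusted p = 0.96, edgeR). Col4a5 and Col4a6, which encode further collagen IV chains of the meninges and other sheets, had 348 to 722 CPM and 443 to 582 CPM in ANGPT2 libraries, against 192 to 276 CPM and 244 to 345 CPM in control libraries. Their log2 differences were 0.96 (SE 0.31) and 0.72 (SE 0.28), with unadjusted p of 0.0088 and 0.021 and an adjusted p of 0.9997 for both (edgeR). Smoc1, a secreted calcium-binding matrix protein, differed by -0.97 (SE 0.37, unadjusted p = 0.021, adjusted p = 0.9997, edgeR). The median over the 7 was 0.014, against -0.00014 over all genes tested.

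Receptors in fibroblast nuclei had 6 members tested, 6 above 0 and 0 with an unadjusted p under 0.05, with a median of 0.35. Remodelling genes had 1 above and 5 below 0, with a median of -0.40. In endothelial nuclei the 4 genes of smallest p over the lists were Itga1 and Itgav (integrin subunits), Mmp16 (a membrane-bound matrix protease) and Bcam (a laminin receptor), with log2 differences of 0.46, 0.65, 0.72 and -0.32 (SE 0.30, 0.44, 0.55 and 0.31). List medians there were -0.022 for 4 components, 0.21 for 6 receptors and 0.19 for 6 remodelling genes, against 0.012 over all genes; 1 assembly gene was tested. In mural nuclei Mmp16 differed by -1.27 (SE 0.54, unadjusted p = 0.035, adjusted p = 1.00, edgeR), and Lamc3 (a laminin gamma chain), Sparc (a collagen-binding matrix protein) and Itgb1 (an integrin subunit) by 0.46, 0.35 and 0.23 (SE 0.42, 0.46 and 0.40). In whole libraries, 3 of 16 assembly genes lay above 0 and 13 below, with a median of -0.17, against -0.019 over all genes. The medians of the other lists were -0.038 for 20 components, -0.0064 for 18 receptors and -0.075 for 21 remodelling genes, and an unadjusted p under 0.05 was found for 1 of 16 assembly genes, 0 of 20 components, 2 of 18 receptors and 1 of 21 remodelling genes, against 2.76% of all genes.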

How the data were processed

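Single-nucleus RNA-seq was made from fresh-frozen brain tissue of 7 mice, 1 library each. The authors deposited raw UMI counts per gene and barcode, made with Cell Ranger 6.1.2 on mm10 (GRCm38), per the submitters' processing notes; whether intronic reads were counted is not given in the sources used here. Of 58286 barcodes, 1 with under 300 genes and 116 with over 5% mitochondrial UMIs were removed. Another 3939 called as doublets from simulated neighbours (5.04% to 7.70% per library) were removed. 1934 barcode sequences occurred in more than 1 library (3906 nuclei). Nuclei were clustered with scanpy 1.11.5 and igraph 0.11.9 (2500 variable genes, 40 components, 15 neighbours, resolution 1) into 46 clusters. Of these, 12 stayed unnamed, for a low marker score, a high share of called doublets or leading markers of another type. The deposited counts were added up for each class of each library, and levels are given per 1000000 UMIs of that class (CPM).

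Sums were tested with edgeR 4.0.16 in R 4.3.3 (quasi-likelihood test, TMM, genes with at least 10 counts in enough libraries and 15 in all). Libraries needed 10 nuclei of a class, and p-values were adjusted by Benjamini-Hochberg over all genes of a fit. They measure the spread between mice. DESeq2 1.42.0, batch as a block, sex as a covariate, no filter, kept doublets, other clusterings and each library left out were alternatives. The replicate block is the batch that the labels give (2 ANGPT2 and 2 control libraries in batch 1, 2 and 1 in batch 2), which joins libraries of a batch and not single pairs; replicate numbers within a group only name samples. The fits were tested on simulated data. All 10 members are described, and up to 4 partner genes of smallest p are named per vascular class. The 3 genes of most similar class pattern were taken among genes with at least 10 CPM in 1 class. Members and lists were chosen with earlier results of these data known. Limits for counts of 0 use 3 counts. The excitatory cluster and the 2 alternatives that leave out excitatory nuclei, or dentate granule and thalamic nuclei, were chosen after seeing the data.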

Additional observations from a re-analysis of the deposited data

Results flagged for a closer look

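Of 70 gene and class groups of 4 ANGPT2 libraries examined, 4 had 1 library far from the other 3 by Dixon's criterion, where chance gives about 1 in 20. Col4a1 in inhibitory nuclei was lowest in the ANGPT2 female of batch 2, at 24.8 CPM, against 30.2 to 31.2 CPM in the other ANGPT2 libraries. Lama2 in oligodendrocyte nuclei was highest in the ANGPT2 male of batch 1, at 445 CPM, against 359.6 to 372 CPM. Lama4 in OPC nuclei was highest in the ANGPT2 male of batch 2, at 127 CPM, against 94.9 to 97.7 CPM. Lamc1 in OPC nuclei was highest in the ANGPT2 female of batch 1, at 217 CPM, against 159 to 166 CPM.

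The treatment effect on Lamc1 in endothelial nuclei differed between batches by 2.78 on the log2 scale (unadjusted p = 0.0018, adjusted p = 0.97, edgeR). The control side of batch 2 is 1 library with 4 UMIs.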

How the results depend on the processing

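No member passed the adjusted threshold under any alternative run. The leading class of 9 members did not change under the clustering and doublet alternatives or with a library left out. That of Hspg2 became endothelial with doublets kept and without control replicate 3, and choroid plexus without control replicate 2. Genes called numbered 2 in whole libraries by DESeq2, against 0 by edgeR. With batch and sex in the fit they numbered 11 in microglia and 10 in choroid plexus nuclei. They numbered 3 each in committed OPC, OPC and oligodendrocyte nuclei and 2 in astrocyte nuclei. Without the count filter they numbered 5 in endothelial, 4 in fibroblast and 2 in mural nuclei, 83 in inhibitory, 73 in microglia, 47 in astrocyte, 39 in oligodendrocyte, 27 in medium spiny and 22 in OPC nuclei, 4 each in choroid plexus and ependymal nuclei, 2 in committed OPC nuclei and 0 in excitatory nuclei and whole libraries.

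With the replicate block, which changed no member's call, log2 differences turned to -0.13 (Col4a1) and -0.043 (Col4a2) in endothelial nuclei, -0.037 (Col4a1) and -0.066 (Lamc1) in mural nuclei, 0.011 (Col4a2) in fibroblast nuclei and -0.0042 (Lama5) in choroid plexus. With block and sex they were -0.18 and -0.070 in endothelial nuclei (Col4a1, Col4a2), -0.15 and -0.034 in mural nuclei (Col4a1, Lamc1), 0.12 for fibroblast Lama4 and -0.015 for choroid plexus Lama5. With sex alone, Lama5 in whole libraries was -0.017, mural Col4a1 -0.020 and fibroblast Lama4 0.031. With doublets kept, endothelial Lamc1 was -0.29 and mural Col4a1 -0.22. With listed genes left out of clustering, mural Col4a1, Lama2 and Lamc1 were -0.0078, -0.047 and -0.053. Mural Col4a1 was -0.041 by DESeq2 and mural Lamc1 -0.0011 without a filter. With excitatory nuclei left out, Lama5 and Lamc1 in whole libraries were -0.030 and 0.017. The causes were not tested.

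Leaving out 1 library at a time gave these ranges. In whole libraries they were -0.69 to 0.28 for Col4a1, -0.62 to 0.13 for Col4a2, -0.076 to 0.15 for Lama5, -0.21 to 0.10 for Lamc1 and -0.27 to 0.086 for Nid1. In endothelial nuclei they were -0.14 to 0.22 for Col4a1, -0.14 to 0.70 for Col4a2 and -0.10 to 0.45 for Lamc1. In mural nuclei they were -0.63 to 0.62 for Col4a1, -0.28 to 0.68 for Lama2, -0.37 to 0.21 for Lamc1 and -0.69 to 0.075 for Nid1. In fibroblast nuclei they were -0.33 to 0.041 for Lama2, -0.24 to 0.22 for Lama4 and -0.70 to 0.093 for Nid1. In excitatory nuclei they were -0.56 to 0.20 for Col4a1 and -0.63 to 0.040 for Col4a2. Lamc1 spanned -0.71 to 0.30 in oligodendrocytes and -0.39 to 0.13 in OPC nuclei, and choroid plexus Lamb1 and Nid2 spanned -0.47 to 0.29 and -0.21 to 0.49. Genes called numbered 0 to 2 for batch by treatment in endothelial nuclei, 0 to 5 in fibroblast nuclei, and 0 to 1 for endothelial minus mural. For treatment, genes called numbered 0 to 8 in microglia and 0 to 6 in medium spiny nuclei. They numbered 0 to 4 in ependymal and 0 to 3 in OPC nuclei. Choroid plexus nuclei are left out of these counts, because without 1 of their 2 ANGPT2 libraries that group has no replicates. Endothelial Lama4 kept its sign, at 0.42 to 1.27, and excitatory-cluster Lama4 at 0.76 to 0.98.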
